A study of Homo sapiens with 6 samples.

Results

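The ID genes (ID1, ID2, ID3 and ID4) and the genes of the E proteins they bind (TCF3, TCF4 and TCF12) were followed in A375 cells, an established human line from a malignant melanoma. The 7 genes were chosen by name, and all 7 were found among the 25343 gene lines of the count table. The study compared 3 libraries of parental A375 cells given vehicle, an equal volume of PBS (0 nM), with 3 libraries of the same cells given 50 nM panobinostat, both for 24 h. Panobinostat is an inhibitor of histone deacetylases, which take acetyl groups off histones and other proteins. The series is 1 cell line at a single dose and time, and the labels do not tell whether each replicate was its own culture. The p-values therefore cover library-to-library spread alone, part or all of which may be technical.

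E proteins are basic helix-loop-helix (bHLH) transcription factors: a helix-loop-helix holds a pair of such proteins together, and a basic stretch beside it grips the E-box of DNA. They pair with each other or with tissue-specific bHLH factors such as those of muscle and nerve. ID proteins have the helix-loop-helix without the basic stretch, so that an E protein held by an ID protein does not bind DNA. ID genes are classic targets of bone morphogenetic proteins (BMPs) acting through SMAD factors, and are best known for holding back differentiation in progenitor and tumour cells. TCF3 (its products include E12 and E47), TCF4 (E2-2) and TCF12 (HEB) are not the TCF factors of WNT signalling.

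The helix-loop-helix is where the 4 ID proteins resemble each other most, and its coding sequence is shown because this shared part is what lets each of them bind an E protein. Each line below is the best matching run of 40 codons in the GENCODE 29 coding sequences, 5′ to 3′, with capitals at bases that all 4 genes share, 68 of 120 (56.7%).
ID1: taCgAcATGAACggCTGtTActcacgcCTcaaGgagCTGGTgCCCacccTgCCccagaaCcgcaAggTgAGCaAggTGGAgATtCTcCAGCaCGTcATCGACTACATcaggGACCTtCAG
ID2: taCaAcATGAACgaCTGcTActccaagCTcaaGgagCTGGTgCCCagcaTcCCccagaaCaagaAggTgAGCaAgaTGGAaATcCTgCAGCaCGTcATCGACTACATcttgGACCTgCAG
ID3: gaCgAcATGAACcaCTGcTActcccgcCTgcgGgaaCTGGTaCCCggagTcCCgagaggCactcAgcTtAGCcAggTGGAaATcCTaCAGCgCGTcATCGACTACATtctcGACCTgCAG
ID4: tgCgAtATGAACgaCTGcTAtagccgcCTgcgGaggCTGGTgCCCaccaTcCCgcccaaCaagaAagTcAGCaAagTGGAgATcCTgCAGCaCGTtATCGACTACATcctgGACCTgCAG
The stretches lie on GRCh38 in coding exons at chr20:31605586-31605705 (ID1, plus strand), chr2:8682274-8682393 (ID2, plus strand), chr1:23559184-23559303 (ID3, minus strand) and chr6:19837950-19838069 (ID4, plus strand). By bases ID1 and ID2 were the closest pair (83.3% the same) and ID1 and ID3 the most distant (69.2%). By encoded residues ID1, ID2 and ID4 were equally close to each other (80.0%), and ID3 shared 62.5% to 70.0% with them. Outside and inside this stretch, the longest run of identical bases between transcripts of any 2 ID genes was 21 bases, between ID1 and ID2, and of any 2 E-protein genes 26 bases, between TCF3 and TCF4. The sequences are those of the reference for the same symbols, since no source used here names the build or annotation behind the counts.

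With panobinostat 3 of the 4 ID genes rose and the E-protein genes moved little. ID2 rose 20.5-fold from a low level, ID1 2.58-fold and ID3 2.50-fold. TCF3 fell by 0.40 on the log2 scale and TCF12 rose 1.11-fold. ID4 and TCF4 did not pass the test. Levels are CPM (a gene's reads scaled to a common library size by TMM), with SD over n = 3 libraries. Each log2 change carries its SE. Tests are quasi-likelihood F tests in edgeR, Benjamini-Hochberg adjusted across the 15499 genes tested, and a gene is called under 0.05. The 4 members called higher and 1 called lower stand beside 82.8% of all genes tested that were called, 41.8% as higher and 41% as lower, so a call does not set a gene apart. ID1, ID2 and ID3 rose more than 2-fold, as did 18.9% of the genes tested, and no member fell as far as 2-fold, as 11.7% did. Bulk RNA cannot tell a change in level per cell from a change in the share of cells that hold the transcript.

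ID2, the member with the lowest level per length in vehicle, had 71, 74 and 84 counts in vehicle replicates 1, 2 and 3, or 1.83, 2.15 and 2.18 CPM. In panobinostat replicates 1, 2 and 3 it had 1532, 1676 and 1219 counts, or 42.3, 45.8 and 37.7 CPM. Every treated library stood far above every vehicle library. The mean went from 2.05 ± 0.190 to 42.0 ± 4.07 CPM, a log2 change of 4.36 ± 0.099 (95% interval 4.15 to 4.56, edgeR adjusted p = 1.55e-16). Only 446 of the genes tested (2.88%) rose by as much as ID2 or more.

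ID1, the most abundant ID transcript in both groups, was at 80.0, 77.5 and 67.4 CPM in vehicle replicates 1 to 3 and at 187, 189 and 203 CPM in panobinostat replicates 1 to 3. The groups were well apart, with the lowest vehicle value in replicate 3 and the highest treated value in replicate 3. The change from 75.0 ± 6.65 to 193 ± 8.84 CPM was 1.37 ± 0.057 on the log2 scale (95% interval 1.24 to 1.49, edgeR adjusted p = 4.63e-12). A rise of that size or more was seen in 14.4% of the genes tested.

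ID3 followed the same course as ID1, at 56.8, 51.2 and 48.6 CPM in vehicle replicates 1 to 3 and 125, 127 and 139 CPM in panobinostat replicates 1 to 3. Its libraries stood in the same order as those of ID1 in both groups. The change from 52.2 ± 4.16 to 130.5 ± 7.38 CPM was 1.32 ± 0.057 on the log2 scale (95% interval 1.20 to 1.44, edgeR adjusted p = 2.25e-12). The counts of ID1 per count of ID3 were 1.41, 1.51 and 1.39 in vehicle and 1.49, 1.49 and 1.46 with panobinostat, ranges that overlap. By contrast, the counts of ID1 per count of ID2 dropped from 36.9 ± 6.36 to 4.65 ± 0.663.

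ID4, whose product is best known from brain and breast tissue, was scarce in both groups. Its values were 3.23, 3.10 and 3.99 CPM in vehicle and 2.90, 3.12 and 2.23 CPM with panobinostat, and the groups overlapped. The log2 difference of -0.32 ± 0.144 (95% interval -0.62 to -0.01) missed the threshold (edgeR adjusted p = 0.0503). It passed as a fall without vehicle replicate 1 (-0.38), without vehicle replicate 2 (-0.40), without panobinostat replicate 2 (-0.42) and with no filter on low counts (-0.36), so leaving out 1 library decides the call.

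**Figure D1:**
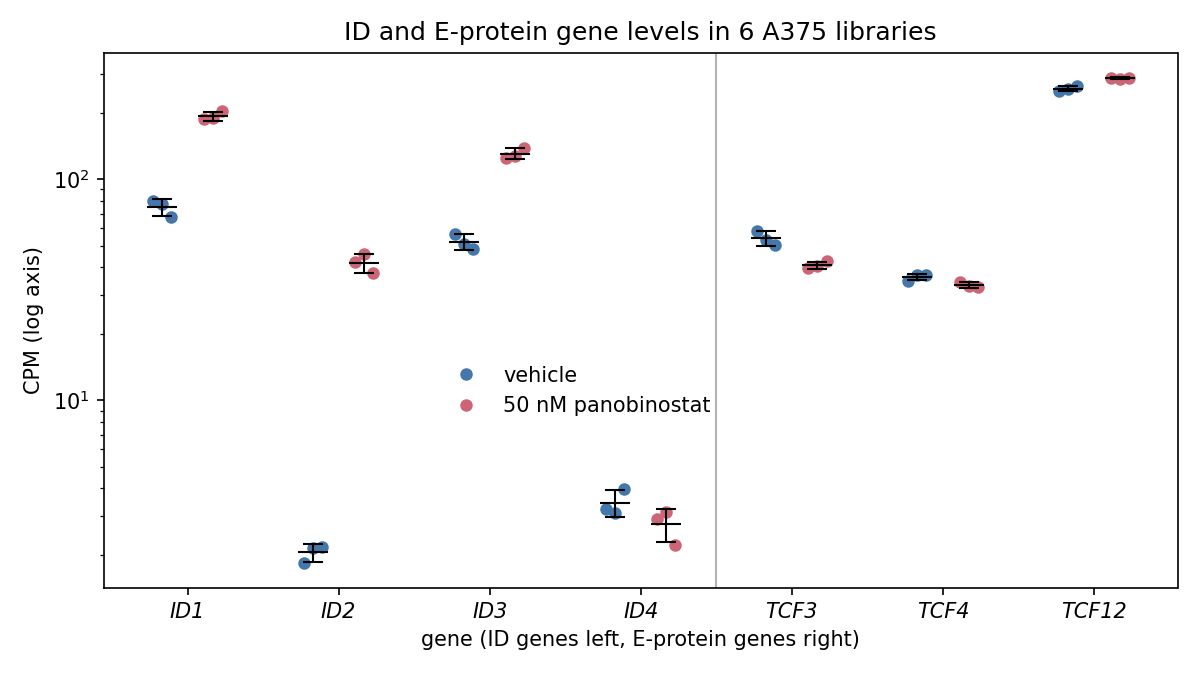
Levels of the 7 genes in each library, in CPM on a log axis. Points are libraries (blue vehicle, red panobinostat), long ticks group means and bars SD (n = 3); ID1, ID2 and ID3 are higher in all 3 treated libraries than in any vehicle library, while the groups of ID4 overlap.

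Among the E proteins, TCF12 had the most counts and was the only one called higher. Its vehicle replicates 1 to 3 stood at 251, 257 and 264 CPM, and its panobinostat replicates at 288, 283 and 288 CPM. The groups were apart but close. The change from 257 ± 6.57 to 287 ± 2.87 CPM was 0.16 ± 0.035 on the log2 scale (95% interval 0.08 to 0.23, edgeR adjusted p = 0.000609). It was 0.28 with upper quartile scaling and 0.25 with a filter of 5 CPM, and 0.12 to 0.16 when single libraries were left out. Upper quartile scaling alone moved the median of all genes by 0.12, and the spike-in lines had 0 counts. A change this small is therefore known only relative to the scaling.

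TCF3 fell, from 58.5, 53.0 and 50.5 CPM in vehicle to 39.8, 40.3 and 42.7 CPM with panobinostat. All treated libraries were below all vehicle libraries. The means were 54.0 ± 4.07 and 40.9 ± 1.53 CPM, a log2 change of -0.40 ± 0.058 (95% interval -0.52 to -0.28, edgeR adjusted p = 5.49e-06). The counts of TCF12 per count of TCF3 therefore went from 4.78 ± 0.471 to 7.01 ± 0.243. Counts per gene do not separate E12 from E47, which differ by alternative exons.

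TCF4 was at 34.7, 36.8 and 37.0 CPM in vehicle and 34.5, 33.0 and 32.5 CPM with panobinostat. The groups did not overlap, by a narrow margin between vehicle replicate 1 and panobinostat replicate 1; over all genes tested 83.4% had groups that did not overlap. The log2 difference of -0.12 ± 0.053 (95% interval -0.23 to -0.003) did not pass (edgeR adjusted p = 0.0538). It passed as a fall without vehicle replicate 1 (-0.16), and was 0.00 with upper quartile scaling, which moved the median of all genes up by 0.12.

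**Figure D2:**
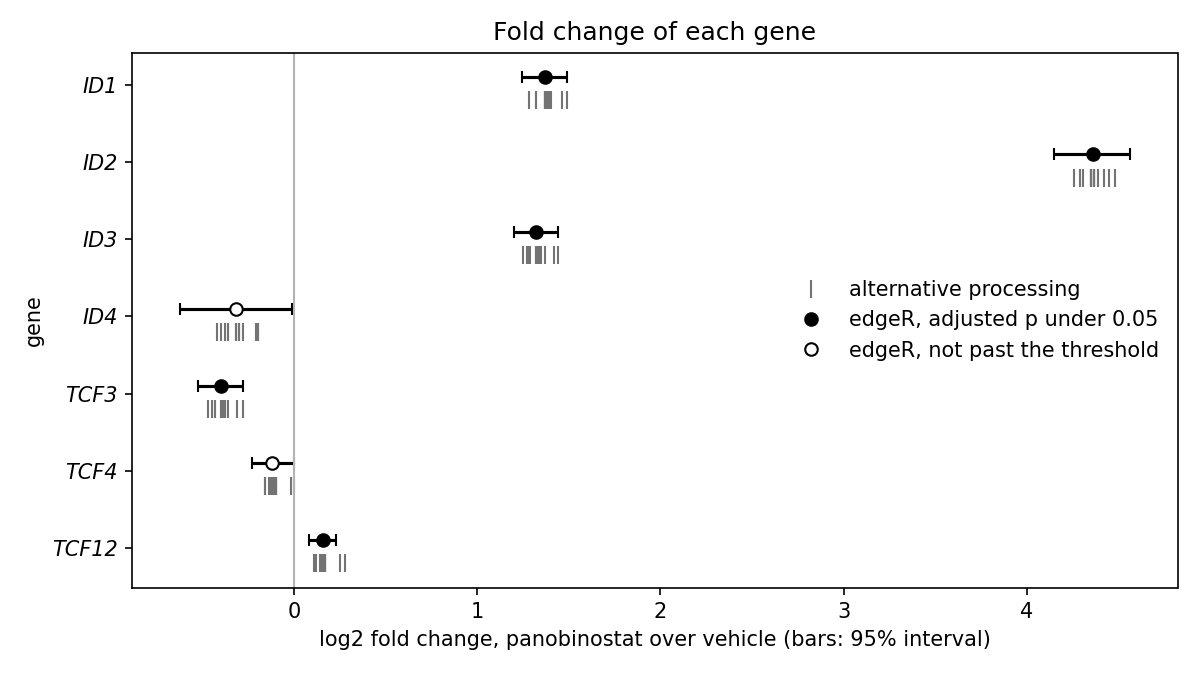
Log2 fold change of each gene, panobinostat over vehicle, with the 95% interval (bars). Filled circles passed the test and open circles did not, and grey ticks are the values under alternative processing; ID2 lies at 4.36, ID1 and ID3 near 1.3, and the E proteins between -0.40 and 0.16.

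To set the genes beside each other, CPM were divided by the length of the longest coding sequence in GENCODE 29 (CPM per kb), since a longer transcript gives more reads. In vehicle the order of levels on that scale was ID1 (161 ± 14.3), ID3 (146 ± 11.6), TCF12 (121 ± 3.10), TCF3 (26.5 ± 1.999), TCF4 (15.6 ± 0.559), ID4 (7.12 ± 0.997) and ID2 (5.10 ± 0.473). ID1 and ID3 overlapped there, and the other neighbours did not. With panobinostat ID2 passed TCF3, TCF4 and ID4, and the order was ID1 (415 ± 19.0), ID3 (365.5 ± 20.7), TCF12 (135 ± 1.35), ID2 (104 ± 10.1), TCF3 (20.1 ± 0.753), TCF4 (14.4 ± 0.445) and ID4 (5.69 ± 0.960). Divided by merged exon length instead, ID4 (1.47 ± 0.206 CPM per kb) came before TCF4 (1.30 ± 0.0466) in vehicle, with overlapping ranges, and ID3 and TCF12 overlapped as well. Divided by the length of the transcript with the longest coding sequence, TCF12 (54.5 ± 1.39 CPM per kb) lay above ID3 (41.7 ± 3.32) in vehicle with no overlap, which reverses their order, and TCF3 and TCF4 overlapped. On that scale TCF4 (13.1 ± 0.405) also lay above TCF3 (11.4 ± 0.428) with panobinostat, so the order of these pairs depends on the length used.

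On the coding-length scale, the ratio of the summed ID level to the summed E-protein level was 2.11, 1.97 and 1.78 in vehicle. With panobinostat it was 5.08, 5.26 and 5.41. It is not a ratio of transcript numbers. The treated libraries were all above the vehicle libraries, and the mean ratio rose from 1.96 ± 0.165 to 5.25 ± 0.164, given here as a description with no test. The size of the ratio depends on the length used, but the treated mean was 2.63 to 2.68 times the vehicle mean on all 4 scales tried. ID1 and ID3 made up most of the ID sum in each library. ID2 took 1.33% to 1.84% of it in vehicle and 10.1% to 12.9% with panobinostat, and ID4 went from 1.95% to 2.80% down to 0.499% to 0.731%. TCF12 held 73.0% to 75.3% of the E-protein sum in vehicle and 79.6% to 79.8% with panobinostat. The shares depend on the length as well: per transcript length ID2 held 0.847% of the ID sum on average in vehicle and 6.44% with panobinostat, and per merged exon length 1.02% and 7.65%. Per transcript length ID4 held 1.24% and 0.368%, and TCF12 held 65.1% and 71.3% of the E-protein sum. RNA levels say nothing of how many protein pairs form.

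**Figure D3:**
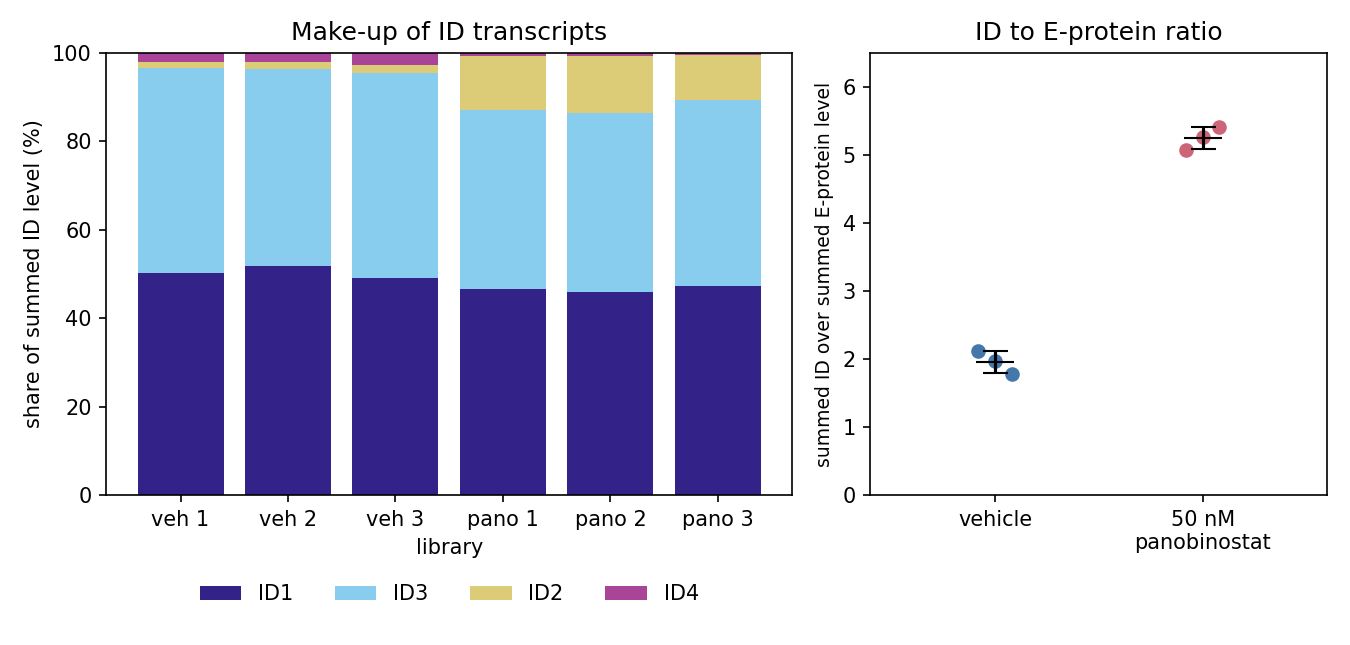
Left, share of the summed ID level (CPM per kb of coding sequence) held by each ID gene in each library, in percent. Right, the ratio of the summed ID level to the summed E-protein level per library, with mean (long tick) and SD (n = 3); it is 1.78 to 2.11 in vehicle and 5.08 to 5.41 with panobinostat.

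Genes with the profile most like each changed member were sought among 11036 other genes with a mean of at least 5 CPM over all 6 libraries, by the root-mean-square (RMS) difference of mean-centred log2 CPM over the 6 libraries. For ID1 these were HPCAL1 (RMS 0.0239) and PIM2 (0.0384), for ID2 LINC00936 (0.0530) and SLC2A12 (0.0957), which were at 1.08 and 1.18 CPM in vehicle and passed that minimum through the panobinostat libraries, and for ID3 EFNB3 (0.0444) and BCL9L (0.0445). For TCF3 they were RBM42 (0.0203) and LINC00665 (0.0224), and for TCF12 PIK3C3 (0.0130) and FOXJ3 (0.0138). A small RMS entails a log2 change near that of the member, so these changes are no separate result. ID1 and ID3 were not each other's nearest gene.

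The list of inputs to ID genes holds BMP ligands, their receptors and SMADs, through which ID genes are classically switched on, together with BMP antagonists (NOG, CHRD, GREM1, FST), the pseudoreceptor BAMBI and the transcription factor EGR1. It moved both ways: of 23 tested among 26 listed, 12 rose and 9 fell, with a median log2 change of 0.32 against 0.01 over all genes tested. Of all genes tested 82.8% were called, 41.8% as higher and 41% as lower, so a call does not set these genes apart. BMP6, a BMP ligand, rose from 7.95 ± 0.366 to 20.4 ± 0.311 CPM (log2 change 1.36, edgeR adjusted p = 5.91e-12). SMAD6, an inhibitory SMAD that BMP signals themselves induce, rose from 8.12 ± 0.672 to 19.3 ± 0.592 CPM. The BMP receptor ACVR1 rose from 33.6 ± 1.46 to 58.0 ± 2.44 CPM. On the other side, the ligand trap FST (follistatin) fell from 143 ± 5.72 to 10.9 ± 0.166 CPM (log2 change -3.70, edgeR adjusted p = 5.59e-19), the co-receptor ENG (endoglin) from 72.6 ± 6.26 to 18.2 ± 0.860 CPM, and the receptor ACVR2B from 60.3 ± 1.02 to 32.1 ± 1.29 CPM. The pseudoreceptor BAMBI fell from 53.9 ± 0.269 to 29.1 ± 1.28 CPM. Of the other BMP antagonists, GREM1 had too few counts to be tested (0 in vehicle and 3 with panobinostat). NOG and CHRD had too few vehicle counts for a fall to be called. NOG (noggin) had 7 counts in vehicle and 202 with panobinostat, or 0.0624 ± 0.0389 and 1.90 ± 0.449 CPM. CHRD (chordin) had 12 and 163 counts, or 0.107 ± 0.0212 and 1.55 ± 0.379 CPM. Both are among the 12 called higher, as is GDF6, with 2 counts in vehicle and 157 with panobinostat. NOG, CHRD and GDF6 passed the filter on low counts only through the panobinostat libraries, so a rise was the only call open to them. GREM1, BAMBI, NOG, CHRD, GDF6 and the SMADs that follow are outside the naming rule and were chosen after their values were seen. The SMADs that carry the BMP signal split: SMAD1 fell by 0.83 on the log2 scale, SMAD5 rose by 0.32, SMAD9 stood at 0.17 and did not pass, and their shared partner SMAD4 fell by 0.31.

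Most tissue-specific bHLH partners of E proteins had too few counts to be tested. Of the 46 listed genes that had a line, 15 had 0 counts in every library and 14 could be tested. Of those tested 10 fell and 2 rose (median log2 change -1.27), beside 41% and 41.8% of all genes tested. MSC (musculin) fell from 13.3 ± 1.06 to 2.09 ± 0.189 CPM, TWIST1, a factor of mesenchyme and of epithelial-mesenchymal transition, from 19.3 ± 0.640 to 7.76 ± 0.570 CPM, and the neuronal factor NEUROG2 from 2.76 ± 0.226 to 0.371 ± 0.0119 CPM. MYOD1, the muscle determination factor, had 1 vehicle count and 116 counts with panobinostat, a ratio of 123.5 (95% interval 21.7 to 4920, counting error only), and reached 1.10 ± 0.371 CPM. MYOD1 is 1 of the 2 called higher. It passed the filter on low counts only through the panobinostat libraries, so a rise was the only call open to it. NHLH1, the other, had 39 counts in vehicle and 85 with panobinostat, and also needed panobinostat libraries to pass. OLIG1, among the 10 that fell, had 92 and 14 counts. It passed only through the vehicle libraries, so a fall was the only call open to it. NHLH1 and OLIG1 were named after their values were seen. With no filter on low counts 31 genes were tested, of which 13 fell and 8 rose, and the median was 0.53. The sign of the median thus depends on the filter, while more called genes fell than rose with and without it. The number that rose was 5 without vehicle replicate 1, and 4 without vehicle replicate 2, vehicle replicate 3 or panobinostat replicate 3.

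The HES, HEY and BHLHE40/41 genes encode bHLH repressors, several of which act downstream of Notch. All 9 that could be tested, of 13 listed, were called: 7 rose and 2 fell (median log2 change 1.5). Over all genes tested 82.8% were called, 41.8% as higher and 41% as lower, so being called does not set these genes apart. HES2 rose from 1.41 ± 0.195 to 15.6 ± 0.771 CPM, HES7, of the segmentation clock, from 2.05 ± 0.348 to 9.86 ± 0.483 CPM, and BHLHE41, a clock-linked repressor, from 9.37 ± 1.17 to 30.1 ± 2.13 CPM. HES1, the main Notch effector in many tissues, fell from 22.0 ± 0.682 to 10.4 ± 0.151 CPM, and HES6 from 4.22 ± 0.813 to 2.45 ± 0.271 CPM.

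Co-regulators and complex partners of E proteins were tested for 15 genes. Of them 9 were higher and 4 lower (median log2 change 0.30), beside 41.8% and 41% of all genes tested. Among the 9, CBFA2T3 had 7 counts in vehicle and 63 with panobinostat, and LMO3 had 33 and 87. Both needed the panobinostat libraries to pass the filter on low counts, so a rise was the only call open to them. CBFA2T3 and LMO3 were named after their values were seen. The adaptor LDB2 rose from 1.68 ± 0.274 to 16.5 ± 0.155 CPM, and SSBP2 and SSBP3, which bind LDB adaptors, from 16.9 ± 0.751 to 39 ± 0.826 and from 45.4 ± 2.10 to 81.2 ± 3.86 CPM. The acetyltransferase genes KAT2B, CREBBP and KAT2A fell (log2 changes -0.80, -0.56 and -0.68), whereas EP300, named after its value was seen, stood at 122 ± 1.5 and 124 ± 3.74 CPM and did not pass.

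Of 8 genes tied to the turnover of ID proteins 2 rose and 5 fell (median log2 change -0.35), beside 41.8% and 41% of all genes tested. USP1, the deubiquitinase that spares ID proteins from the proteasome, fell from 135 ± 5.61 to 91.3 ± 3.40 CPM. The ubiquitin ligase gene SMURF2 rose from 66.8 ± 0.890 to 117 ± 1.47 CPM and FZR1, which directs the anaphase-promoting complex to its substrates, from 35.3 ± 3.52 to 43.4 ± 1.18 CPM. Of that complex, CDC27 and ANAPC10 fell (log2 changes -0.43 and -0.83).

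Reported targets of ID and E proteins moved both ways. Of 14 tested 6 were higher and 7 lower (median log2 change -0.22), beside 41.8% and 41% of all genes tested. The cytokine CXCL8 rose from 31.6 ± 3.32 to 86.7 ± 2.93 CPM and THBS1, the angiogenesis inhibitor thrombospondin-1 that ID1 is reported to repress, from 668 ± 34.1 to 959 ± 30.2 CPM. CDKN1A (p21), which E proteins are known to activate, rose from 68.1 ± 4.94 to 161 ± 4.53 CPM. CCND1 (cyclin D1) fell from 591 ± 12.7 to 215 ± 9.91 CPM, and MMP14 and CDKN1C fell as well (log2 changes -3.05 and -4.25). CDKN2B had 0 counts in all libraries.

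**Figure D4:**
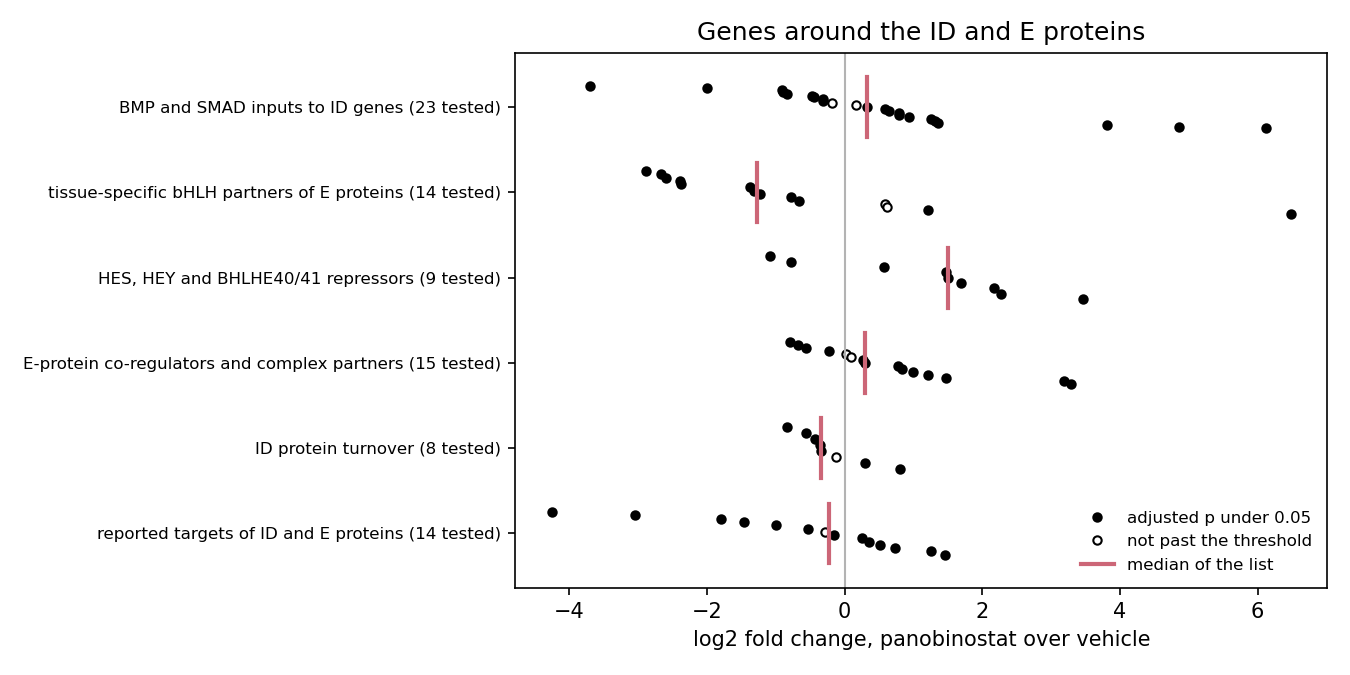
Log2 fold change, panobinostat over vehicle, of every tested gene in the 6 lists of related genes (filled, passed the test; open, did not; red line, median of the list). The bHLH partners lie mostly below 0 and the HES, HEY and BHLHE genes mostly above, and the other lists fall on both sides.

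In the RefSeq windows of 250 bases before the start of each ID gene (GRCh38.p14), E-boxes (CANNTG on either strand) were counted, since E proteins bind them. ID2 and ID4 had 1 each, and ID1 and ID3 had none; of 35116 such windows 61.8% hold one. GGCGCC, a core that BMP SMADs can bind, was in none of the 4 and in 16.4% of all windows. These are matches of letters, not sites, and 250 bases of the ID3 window and 202 of the ID2 window lie in exons that GENCODE 29 gives to those genes. Bases outside the windows were not searched, so a missing match says nothing of sequence farther away.

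Read totals were 32293283 to 38944399 per library, at which 3 counts correspond to 0.0770 to 0.0929 CPM, well below every member's level. The labelled cell type was checked on markers: SOX10 went from 813 ± 56.4 to 368 ± 21.8 CPM and PMEL from 0.628 ± 0.118 to 194 ± 9.46 CPM, while MLANA and TYR, pigment cell markers, had 0 counts throughout. Of 9 markers of the melanocyte lineage 6 could be tested, of which 4 fell and 2 rose. The 9 had a summed level of 986 to 1104 CPM in vehicle and 645 to 709 CPM with panobinostat, the largest part from SOX10. TYRP1, 1 of the 2 that rose, had 26 counts in vehicle and 47 with panobinostat, and needed panobinostat libraries to pass the filter on low counts. Lymphoid markers, of interest because lymphocytes depend on E and ID proteins, summed to at most 0.0778 CPM in vehicle and 0.684 CPM with panobinostat over 7 genes, with MS4A1 at 0. Over all genes tested 41.8% were called higher and 41% lower. Fibroblast markers (6 of 6 higher) summed to 14.4 to 16.5 and 87.0 to 90.9 CPM, endothelial markers (3 of 3 tested higher) to 9.06 to 10.4 and 18.4 to 18.8 CPM, and epithelial markers (3 higher, 1 lower) to 169 to 178 and 326 to 345 CPM. Of these markers COL1A2, COL3A1, PECAM1 and EPCAM passed the filter on low counts only through the panobinostat libraries, so they could only be called higher. The marker sums moved between the same groups as the ID genes, and their part in the results was not tested.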

How the data were processed

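RNA of 6 A375 libraries was analysed from raw read counts per gene symbol, as the authors deposited them with no normalization. The labelled dose set each sample's group, and sample titles matched the columns. Only the table's name mentions STAR; no source used here gives its version, build, annotation or strand setting. Reads from opposite-strand genes (38 bases of ID2, and 65 and 195 of TCF4, in GENCODE 29) thus cannot be told apart. Of 25435 lines, 92 spike-in lines with 0 counts were left out. Pairs of libraries in a group differed beyond sampling noise (chi-square per degree of freedom 1.90 to 9.14), and none was identical.

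After filterByExpr and TMM scaling, a robust quasi-likelihood fit in edgeR on group alone gave F tests, adjusted by Benjamini-Hochberg. SE is the log2 fold change divided by the square root of F. Intervals of 95% use the fit's degrees of freedom. Software was R 4.3.3, edgeR 4.0.16, limma 3.58.1, DESeq2 1.42.0 and Python 3.11.15. On simulated counts for panobinostat against vehicle with 14360 genes tested, edgeR found 52% of 1.25-fold changes, 96% of 1.5-fold and 100% of 2-fold or larger ones. Of the calls 10.3% fell on unchanged genes. Only 50 genes were changed per fold size, equally up and down, whereas 82.8% of genes were called in the real data. These shares therefore need not hold for the real data, and no change as small as that of TCF12 was simulated.

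Members, lists and tests were chosen with earlier results of these data known. Named genes were the members, up to 3 called genes per direction and list by adjusted p that reached 1 CPM in a group, and the 2 nearest profiles (log2 of CPM plus 0.5) of each called member; others are marked. Alternatives were 3 scalings, 2 filters, limma-voom, DESeq2, thinning, a replicate block and omission of each library in turn. Gene lengths came from GENCODE 29. The plan named no kind of length, so each length scale, coding length included, counts as chosen after seeing the data.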

Additional observations from a re-analysis of the deposited data

How the results depend on the processing

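ID1 (1.28 to 1.49), ID2 (4.26 to 4.48), ID3 (1.25 to 1.44), TCF3 (-0.47 to -0.28) and TCF12 (0.11 to 0.28) kept their direction and passed in all 15 alternatives. ID4, which was not tested with the filter of 5 CPM in 3 libraries, passed with no filter on low counts (-0.36) and ranged from -0.42 to -0.20 when libraries were left out. TCF4 passed with no filter (-0.16), limma-voom (-0.12) and thinning (-0.13), ranged from -0.16 to -0.10 when libraries were left out, and turned to 0.00 with upper quartile scaling. Members called lower were accordingly 3 with no filter, 2 with limma-voom, 2 with thinning and 1 to 3 with a library left out; of ID genes 1 fell with no filter and 0 to 1 with a library left out, and of E-protein genes 2 fell with no filter, limma-voom or thinning and 1 to 2 with a library left out. Tissue-specific bHLH partners called higher were 8 with no filter and 0 with the 5 CPM filter, where 4 of 4 fell, and 3 to 5 with a library left out. HES, HEY and BHLHE40/41 genes called lower were 1 with the 5 CPM filter. The ratio of the summed ID level to the summed E-protein level was 2.47 and 6.52 (vehicle and panobinostat) per merged exon length. It was 0.382 and 1.02 with no length, and 1.43 and 3.76 per transcript length. With a replicate block the log2 changes of ID1, ID2 and ID3 were 1.37, 4.35 and 1.32, and no call of a member changed. Deviations from the group mean correlated at -0.368 to -0.152 between same-numbered libraries and at -0.154 to 0.281 between the others. With 3 libraries per group, each centred on its group mean, these values are tied to each other. They cannot tell whether the samples were handled in pairs. Counts were low for ID4, at 72 to 154 per library, and for ID2 in vehicle, at 71 to 84.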
